A study of Rattus norvegicus with 16 samples.

Results

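The genes described here encode the machinery of autophagy, the cathepsins and the proton pump of the lysosome, measured in the rat diaphragm. Members were all array rows whose gene symbol starts with Atg and a digit, Map1lc3, Gabarap, Lamp and a digit, Atp6v0 or Atp6v1, consists of Cts and a single letter, or is Sqstm1, Bnip3, Becn1, Ulk1, Ulk2 or Tfeb. The rule uses names only and no measured value. It took 69 of the 15037 gene symbols on the array, each represented by 1 row (1 transcript cluster). Of these 69 members, 48 lay above the brightest background control of the same array on all 16 arrays, 4 on some arrays and 17 on none.

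Whole diaphragms of adult male Wistar rats aged 14 to 16 weeks were profiled on Clariom S arrays, with 4 rats and 1 array per rat in each group. In E-V12, rats underwent tracheostomy, a midline abdominal incision with electrodes placed in the diaphragm, and continuous electrical stimulation of the muscle during 12 h of mechanical ventilation. S-V12 was the sham operation, with the same tracheostomy, incision, electrodes and 12 h of ventilation but no current, and both operated groups also breathed supplemental oxygen. In V12, rats had tracheostomy and 12 h of ventilation alone, and in CON the diaphragm was taken directly after anaesthesia, without ventilation. All groups received isoflurane followed by urethane, and tissue around the electrodes was removed before RNA was extracted. V12/CON therefore holds ventilation, tracheostomy, the hours under anaesthesia and the time to harvest together, and S-V12/V12 holds incision, electrodes and oxygen together. E-V12 and S-V12 differ in the current.

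Autophagy encloses cytoplasm in a double membrane and delivers it to the lysosome. The ULK kinase complex starts the process, the Beclin 1 lipid kinase complex marks the membrane, and a pair of conjugation systems attaches proteins of the ATG8 family (the LC3 and GABARAP proteins) to the growing membrane, where cargo receptors such as p62 bind them. In the lysosome the vacuolar ATPase pumps protons inward, and the cathepsins, most of them cysteine or aspartic proteases active at acid pH, degrade what arrives. TFEB is the transcription factor known for driving many of these genes, through promoter sites built around the letters CACGTG. In skeletal muscle the pathway is known for its activity during disuse and fasting.

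The promoters of 4 members are printed here because they carry TCACGTGA, the palindromic form of the TFEB site, before the transcription start. The sequences are from RefSeq on the GRCr8 assembly, all on the minus strand, each read 5′ to 3′ toward the gene, with every CACGTG in capitals: Lamp1 at chr16:83075064-83075253, Ctsd at chr1:206968822-206968881, Atp6v0d1 at chr19:50357249-50357308 and Atg3 at chr11:69159281-69159340.
Lamp1: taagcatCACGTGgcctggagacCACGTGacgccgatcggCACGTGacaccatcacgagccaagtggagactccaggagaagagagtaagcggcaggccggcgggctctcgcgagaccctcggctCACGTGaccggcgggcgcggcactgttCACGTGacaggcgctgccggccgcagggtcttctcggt
Ctsd: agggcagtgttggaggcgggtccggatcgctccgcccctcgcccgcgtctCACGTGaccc
Atp6v0d1: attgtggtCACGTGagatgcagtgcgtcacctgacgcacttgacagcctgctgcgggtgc
Atg3: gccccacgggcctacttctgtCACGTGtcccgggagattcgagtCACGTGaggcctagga
Windows of 250 bases before to 50 bases after the start were given for 58 of the 69 members. TCACGTGA, searched on both strands, was present in 5 of these 58 windows (8.62%), the fifth being that of Atp6v0e1, against 260 of 33469 rat promoter windows (0.777%). The shorter CACGTG, which every TCACGTGA contains, was present in 9 member windows (15.5%, against 6.42% of all windows). GTAAACA, the core of the FOXO site, was present in 1 (Atp6v1b1, 1.72%, against 3.78%). A match describes these letters only and says nothing of binding.

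Signals are log2 values, so a difference of 1 is a 2-fold difference, and levels are compared between groups for the same gene, never between genes. Changes were tested with limma in 1 model of the 4 groups, with two-sided p-values adjusted by the Benjamini-Hochberg method over all 23188 clusters, and a member is said to rise or fall where its adjusted p was under 0.05. Changes are given ± SE and group means ± SD over the 4 rats of a group. Because whole muscle was measured, fewer cells of a type and less RNA per cell cannot be told apart.

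In V12/CON 13 members rose and 3 fell, against 7.68% of all clusters higher and 8.67% lower. In S-V12/V12 9 rose and 11 fell (8.05% of all clusters higher, 6.66% lower). In E-V12/S-V12 1 rose and 4 fell (1.19% higher, 1.51% lower). Expressed genes are called more often than dim ones, and among the 6968 clusters above background on all 16 arrays, 14.2% were higher and 18.1% lower for V12/CON, 17.8% higher and 14.1% lower for S-V12/V12, and 3.4% higher and 3.9% lower for E-V12/S-V12. Arrays of the compared groups did not overlap for 12 members higher and 3 lower in V12/CON (7.99% and 8.43% of all clusters), for 13 and 11 in S-V12/V12 (10.6% and 9.26%), and for 4 and 10 in E-V12/S-V12 (6.11% and 7.35%). The median change of the 69 members was 0.13 for V12/CON, against 0.03 over all clusters. For S-V12/V12 it was 0.03, against −0.05, and for E-V12/S-V12 −0.00, against 0.02. Against CON, 19 members rose and 10 fell in S-V12 (12.0% and 12.8% of all clusters), and 13 rose and 4 fell in E-V12 (10.9% and 12.6%). With the t-test the methods name, adjusted in the same way, V12/CON had 7 members up and 1 down, S-V12/V12 had 9 up and 5 down, and E-V12/S-V12 had 1 up and 4 down. The calls on Tfeb, Atg12, Atg4a, Atp6v0e1, Atp6v0a1, Atp6v1g2, Ctsc and Ctss in V12/CON, on Map1lc3a, Gabarapl2, Atg3, Atg4a, Atp6v0e1, Atp6v0a2, Atp6v1b2 and Atp6v1g3 in S-V12/V12, and on Ulk1 in E-V12/S-V12 ended under that test, and those on Map1lc3b and Atg2a in S-V12/V12 (higher) and Atg9a in E-V12/S-V12 (lower) were gained. Comparisons next to each other share the arrays of a group, so their values are given side by side without a measure of likeness.

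**Figure D1:**
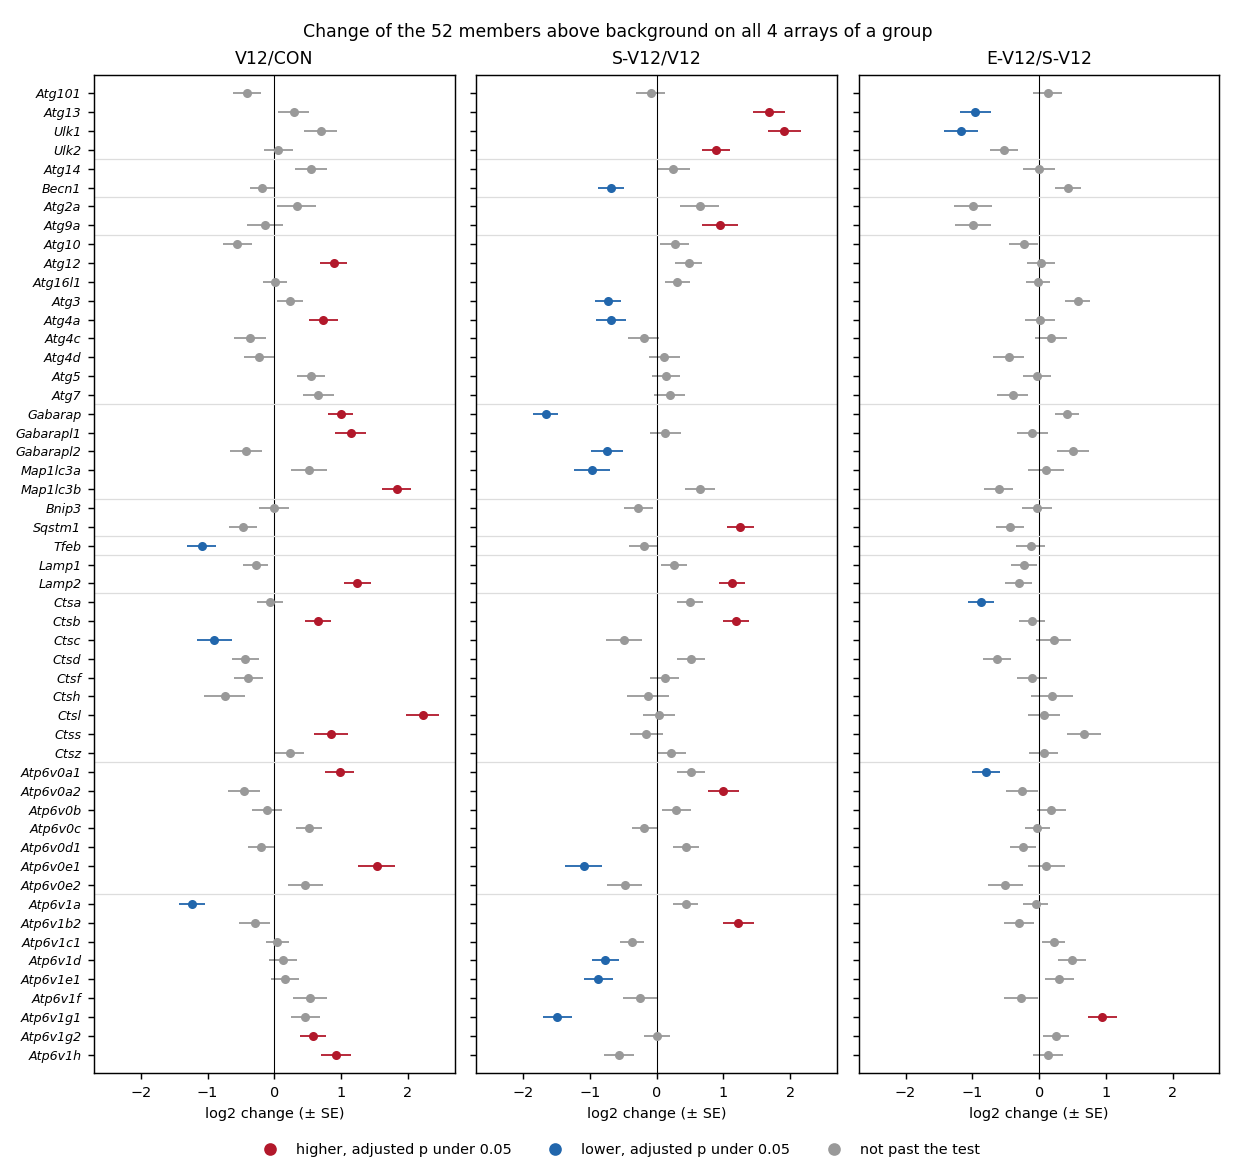
Log2 change ± SE (x axis) of the 52 members that lay above background on all 4 arrays of at least 1 group, in V12/CON, S-V12/V12 and E-V12/S-V12, ordered by role. Red marks members that rose and blue members that fell at an adjusted p under 0.05. Red points at Map1lc3b, Gabarap, Gabarapl1, Lamp2, Atp6v0e1 and Ctsl stand out in V12/CON, points on both sides in S-V12/V12, and most points are grey in E-V12/S-V12.

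Tfeb was the only transcription factor in the rule, and its signal was lower in all ventilated groups. It read 8.52, 8.56, 8.37 and 8.67 in E-V12, 9.14, 8.44, 8.62 and 8.43 in S-V12, 9.25, 8.45, 9.06 and 8.65 in V12, and 10.24, 9.56, 9.75 and 10.21 in CON. Every CON array lay above every other array. Tfeb fell by 1.09 ± 0.22 in V12/CON (adjusted p = 0.00111), while the change was −0.20 ± 0.22 for S-V12/V12 and −0.13 ± 0.22 for E-V12/S-V12. Its difference from CON was −1.28 in S-V12 (adjusted p = 0.000103) and −1.41 in E-V12 (adjusted p = 3.66e-05). Of the 13 members that rose in V12/CON, 11 had a promoter window, and 1 of them, that of Atp6v0e1, held TCACGTGA. For the 3 members that fell there, it was 0 of 3 windows. In S-V12/V12 it was 0 of 6 windows for members that rose and 2 of 9 for those that fell (Atg3 and Atp6v0e1). In E-V12/S-V12 it was 0 of 1 and 0 of 4. The members whose promoters are printed above did not pass the test in V12/CON, with changes of −0.28 for Lamp1, −0.43 for Ctsd, −0.20 for Atp6v0d1 and 0.24 for Atg3. The part of TFEB in any of these changes was not tested.

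Of the ULK complex, which starts autophagosome formation, Ulk1, Ulk2 and Atg13 had their highest mean signals in S-V12. Ulk1, its kinase, read 10.53, 10.43, 9.48 and 9.42 in E-V12, 11.52, 10.94, 11.06 and 11.02 in S-V12, 9.0, 9.20, 9.55 and 9.15 in V12, and 8.38, 8.99, 8.28 and 8.45 in CON. All S-V12 arrays lay above all arrays of the other groups, and the E-V12 arrays split into a higher and a lower pair. Ulk1 rose 3.76-fold in S-V12/V12 (1.91 ± 0.25 on the log2 scale, adjusted p = 1.94e-05) and fell by 1.17 ± 0.25 in E-V12/S-V12 (adjusted p = 0.0182). In V12/CON its arrays did not overlap, but the change of 0.70 ± 0.25 missed the threshold (adjusted p = 0.0624). E-V12 remained above CON, by 1.44 (adjusted p = 0.000134).

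Atg13, another subunit of the ULK complex, had the same order of group means, with 10.96, 11.36, 10.67 and 10.98 in E-V12, 11.96, 11.97, 12.08 and 11.79 in S-V12, 10.45, 10.31, 10.15 and 10.17 in V12, and 10.78, 9.84, 9.34 and 9.97 in CON. The V12 and CON arrays overlapped, whereas S-V12 stood above all others. It rose by 1.68 ± 0.24 in S-V12/V12 (adjusted p = 3.94e-05) and fell by 0.96 ± 0.24 in E-V12/S-V12 (adjusted p = 0.0319). Ulk2, the related kinase, averaged 11.91 ± 0.27 in E-V12, 12.43 ± 0.21 in S-V12, 11.55 ± 0.16 in V12 and 11.49 ± 0.43 in CON, and rose by 0.89 ± 0.21 in S-V12/V12 (adjusted p = 0.00641), with −0.53 ± 0.21 in E-V12/S-V12 (adjusted p = 0.201). Atg101, the remaining gene of the complex that the rule took, changed by −0.41, −0.09 and 0.13 (each ± 0.22) in V12/CON, S-V12/V12 and E-V12/S-V12, and none passed. The complex also holds Rb1cc1, which the rule does not take.

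Both falls in E-V12/S-V12 lost their call in several settings that leave out 1 array. Over all settings the change stayed at −1.36 to −0.988 for Ulk1 and −1.08 to −0.847 for Atg13. The Ulk1 call ended without S-V12 replicate 1 (adjusted p = 0.0613), E-V12 replicate 3 (0.087) or E-V12 replicate 4 (0.0548). The Atg13 call ended without any 1 of the S-V12 arrays or without E-V12 replicate 1, 3 or 4 (adjusted p = 0.0655 to 0.134).

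Becn1, which encodes Beclin 1 of the lipid kinase complex, went the other way from the ULK genes. It read 11.76, 11.38, 11.23 and 11.62 in E-V12, 10.99, 11.12, 11.06 and 11.08 in S-V12, 11.81, 11.58, 11.56 and 12.04 in V12, and 12.32, 11.88, 11.86 and 11.65 in CON. The S-V12 arrays were the lowest of the 16 and lay within 0.14 of each other. Becn1 fell by 0.68 ± 0.19 in S-V12/V12 (adjusted p = 0.0163), a call that ended without V12 replicate 4 (adjusted p = 0.0616), and the change in E-V12/S-V12 was 0.43 ± 0.19 (adjusted p = 0.247), with no overlap of the arrays. Atg14, its partner in that complex, averaged 7.53 ± 0.09 in E-V12, 7.53 ± 0.16 in S-V12, 7.29 ± 0.43 in V12 and 6.74 ± 0.56 in CON, and lay above background on 1 of 4 CON arrays. Its calls above CON in S-V12 and E-V12 (adjusted p = 0.0185 and 0.0198) are each bounded at 1.54-fold or more. Each was kept in 13 of the 16 settings that leave out 1 array. Atg9a, the lipid scramblase carried by the vesicles that seed the membrane, averaged 9.44 ± 0.18 in E-V12, 10.43 ± 0.11 in S-V12, 9.48 ± 0.31 in V12 and 9.61 ± 0.76 in CON. It rose by 0.95 ± 0.27 in S-V12/V12 (adjusted p = 0.0189, and 0.0704 without V12 replicate 3), and its difference in E-V12/S-V12 was −0.99 ± 0.27 (adjusted p = 0.0502). The lipid transfer gene Atg2a changed by 0.64 ± 0.29 in S-V12/V12 (adjusted p = 0.149) and by −0.99 ± 0.29 in E-V12/S-V12 (adjusted p = 0.0662).

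Of the 10 genes of the conjugation systems, 2 rose in V12/CON (7.68% of all clusters and 14.2% of expressed ones) and 2 fell in S-V12/V12 (6.66% and 14.1%). Atg12, the ubiquitin-like protein that is joined to ATG5, read 10.05, 9.84, 9.66 and 9.66 in E-V12, 10.10, 9.66, 9.69 and 9.66 in S-V12, 9.42, 9.24, 8.94 and 9.59 in V12, and 8.88, 8.42, 8.05 and 8.29 in CON. All CON arrays were below all ventilated arrays. Atg12 rose by 0.89 ± 0.21 in V12/CON (adjusted p = 0.00356) and stood 1.37 above CON in S-V12 (adjusted p = 2.17e-05) and 1.39 in E-V12 (adjusted p = 1.77e-05). Atg4a, a protease that trims ATG8 proteins before conjugation, averaged 10.63 ± 0.09 in E-V12, 10.61 ± 0.20 in S-V12, 11.30 ± 0.47 in V12 and 10.56 ± 0.33 in CON. It rose by 0.74 ± 0.22 in V12/CON and fell by 0.68 ± 0.22 in S-V12/V12 (adjusted p = 0.0234 and 0.0391), with overlapping arrays in both. The V12/CON call on Atg4a ended without CON replicate 1 or 2 or V12 replicate 2 or 4 (adjusted p = 0.0503 to 0.0978), and the S-V12/V12 call without V12 replicate 2 or 4 or S-V12 replicate 1 or 2 (0.094 to 0.141). Atg3, the enzyme that transfers LC3 to lipid, averaged 10.15 ± 0.19 in E-V12, 9.58 ± 0.10 in S-V12, 10.30 ± 0.35 in V12 and 10.07 ± 0.17 in CON, and fell by 0.73 ± 0.19 in S-V12/V12 (adjusted p = 0.0109).

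The remaining conjugation genes passed none of the 3 consecutive tests. Atg5 stood above CON by 0.69 in S-V12 (adjusted p = 0.0178) and 0.66 in E-V12 (adjusted p = 0.0241); the Atg5 calls ended without CON replicate 4 or S-V12 replicate 2 for S-V12 (adjusted p = 0.0561 and 0.0708), and without CON replicate 3 or 4 or E-V12 replicate 2 or 4 for E-V12 (0.0515 to 0.0715). Atg7, the activating enzyme of both systems, was above background on no CON array, so its higher signal in S-V12 is bounded at 1.38-fold or more (adjusted p = 0.00776). Atg10, Atg16l1, Atg4c and Atg4d passed no test against CON either, and Atg16l2 was below background throughout.

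The 5 ATG8 genes did not move together. Map1lc3b, which encodes LC3B, the usual marker protein of autophagosomes, read 15.49, 16.22, 15.67 and 15.75 in E-V12, 16.49, 16.32, 16.27 and 16.48 in S-V12, 15.65, 16.02, 15.58 and 15.70 in V12, and 14.10, 13.47, 13.54 and 14.51 in CON. The lowest ventilated array was 0.975 above the highest CON array. Map1lc3b rose 3.56-fold in V12/CON (1.83 ± 0.22, adjusted p = 2.87e-06). In S-V12/V12 the arrays did not overlap, and the difference of 0.65 ± 0.22 lay at the threshold (adjusted p = 0.0526), below it in 12 of 24 alternative settings and above it in the others. The difference in E-V12/S-V12 was −0.61 ± 0.22 (adjusted p = 0.15), again without overlap.

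Gabarap had its highest signals in V12 alone. It read 14.18, 14.24, 14.16 and 13.92 in E-V12, 13.95, 13.68, 13.84 and 13.37 in S-V12, 15.41, 15.48, 15.17 and 15.44 in V12, and 14.10, 14.61, 14.54 and 14.29 in CON. The 4 V12 arrays stood above all 12 others, and all S-V12 arrays lay below all CON arrays. It rose by 0.99 ± 0.18 in V12/CON (adjusted p = 0.000439), fell by 1.66 ± 0.18 in S-V12/V12 (adjusted p = 3.2e-06), and differed by 0.41 ± 0.18 in E-V12/S-V12 (adjusted p = 0.25). S-V12 was 0.67 lower than CON (−0.67, adjusted p = 0.00839). Gabarapl1, a close relative, was high in all ventilated groups, with 12.87, 14.01, 14.01 and 13.85 in E-V12, 13.59, 13.95, 13.69 and 13.92 in S-V12, 13.52, 13.45, 13.96 and 13.69 in V12, and 12.47, 12.68, 12.14 and 12.75 in CON. It rose by 1.15 ± 0.23 in V12/CON (adjusted p = 0.00117), and the changes of 0.13 ± 0.23 in S-V12/V12 and −0.10 ± 0.23 in E-V12/S-V12 did not pass.

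Gabarapl2 was lower in the operated groups than in CON. It read 10.73, 10.68, 10.48 and 10.70 in E-V12, 10.50, 9.92, 9.96 and 10.18 in S-V12, 10.61, 10.96, 10.66 and 11.33 in V12, and 10.63, 11.56, 11.92 and 11.16 in CON. The change in V12/CON was −0.43 ± 0.24 (adjusted p = 0.269). It fell by 0.75 ± 0.24 in S-V12/V12 (adjusted p = 0.0381), and the call ended without V12 replicate 2 or 4 or S-V12 replicate 2, 3 or 4 (adjusted p = 0.0692 to 0.13) and with array medians subtracted (0.0671). Its difference from CON was −1.18 in S-V12 (adjusted p = 0.000669) and −0.67 in E-V12 (adjusted p = 0.0466), where leaving out any 1 of 11 arrays ended the call (adjusted p up to 0.183). Map1lc3a, which encodes LC3A, averaged 8.74 ± 0.30 in E-V12, 8.64 ± 0.32 in S-V12, 9.61 ± 0.60 in V12 and 9.08 ± 0.41 in CON. It fell by 0.96 ± 0.27 in S-V12/V12 (adjusted p = 0.0168), with overlapping arrays, and the call ended without V12 replicate 2 or 4 or S-V12 replicate 2 (adjusted p = 0.0598 to 0.072).

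**Figure D2:**
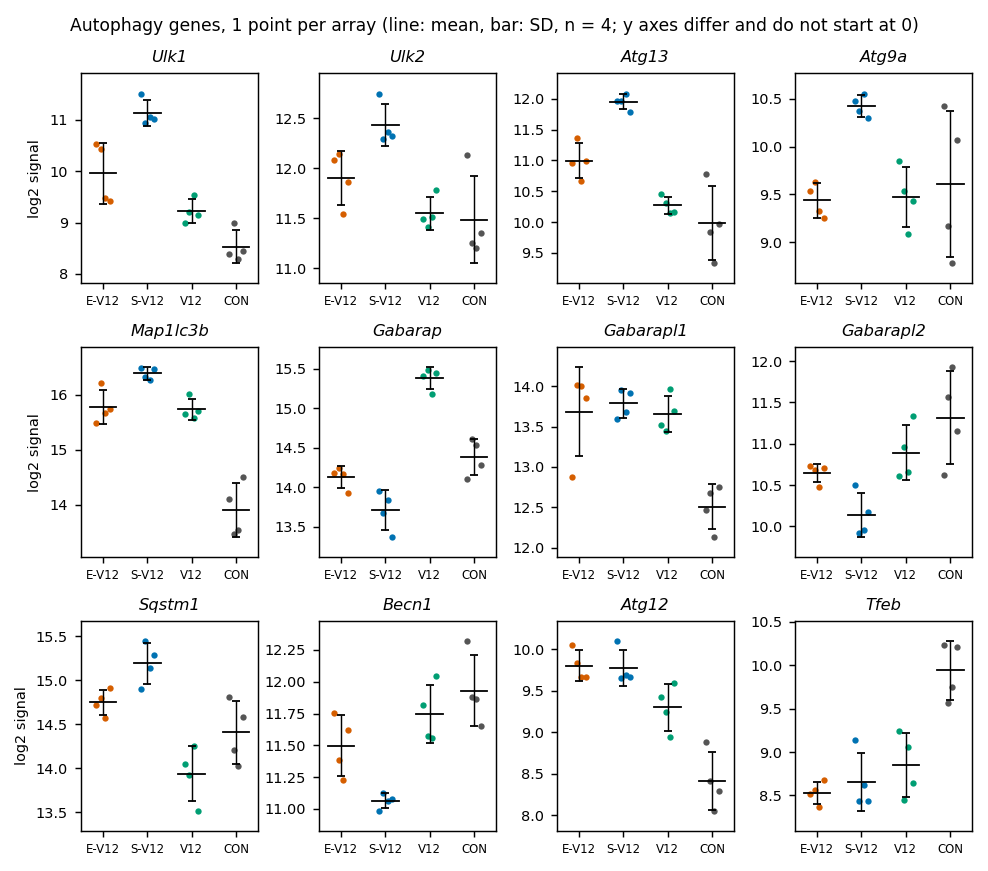
Log2 signal (y axis, not starting at 0) of 12 autophagy genes on each array in E-V12, S-V12, V12 and CON; points are single rats, lines the mean and bars the SD over the 4 rats. Ulk1, Ulk2 and Atg13 peaked in S-V12, Gabarap in V12, and Tfeb in CON.

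Sqstm1, which encodes the cargo receptor p62, read 14.72, 14.80, 14.57 and 14.91 in E-V12, 14.90, 15.44, 15.14 and 15.28 in S-V12, 14.05, 13.93, 14.26 and 13.52 in V12, and 14.81, 14.21, 14.03 and 14.59 in CON. V12 and CON overlapped and S-V12 stood above both. It rose by 1.25 ± 0.21 in S-V12/V12 (adjusted p = 0.000241), with −0.47 ± 0.21 in V12/CON (adjusted p = 0.141) and −0.44 ± 0.21 in E-V12/S-V12 (adjusted p = 0.288). Bnip3, a mitophagy receptor of the outer mitochondrial membrane, read between 13.66 and 14.80 on all arrays. Its changes were −0.00 ± 0.22 in V12/CON, −0.27 ± 0.22 in S-V12/V12 and −0.04 ± 0.22 in E-V12/S-V12, and none passed.

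The paired lysosomal membrane glycoproteins differed from each other. Lamp2, needed for fusion of autophagosomes with lysosomes, read 16.38, 16.48, 16.48 and 16.96 in E-V12, 16.96, 17.03, 16.47 and 17.06 in S-V12, 15.97, 15.66, 15.69 and 15.70 in V12, and 14.47, 14.80, 14.11 and 14.66 in CON. CON, V12 and the operated groups formed 3 steps without overlap between them. Lamp2 rose 2.37-fold in V12/CON (1.24 ± 0.20, adjusted p = 0.000106) and 2.18-fold in S-V12/V12 (1.13 ± 0.20, adjusted p = 0.000501), and the change in E-V12/S-V12 was −0.31 ± 0.20 (adjusted p = 0.485). S-V12 was 5.17-fold and E-V12 4.17-fold above CON. Lamp1 read 15.72, 15.60, 15.35 and 15.55 in E-V12, 15.57, 15.69, 15.96 and 15.90 in S-V12, 15.67, 15.53, 15.21 and 15.70 in V12, and 16.06, 15.82, 15.36 and 15.99 in CON. All its groups overlapped, and its changes of −0.28, 0.25 and −0.22 (each ± 0.19) in the 3 consecutive comparisons did not pass. Lamp3 and Lamp5, found mainly in dendritic cells and neurons, were below background on every array.

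Of the 17 cathepsins, 9 were above background on all 4 arrays of at least 1 group. Ctsl, a cysteine endopeptidase long studied in wasting muscle, read 12.78, 12.53, 13.26 and 12.94 in E-V12, 12.45, 12.70, 12.92 and 13.15 in S-V12, 12.13, 12.95, 13.01 and 12.98 in V12, and 10.09, 11.06, 10.63 and 10.41 in CON. The lowest ventilated array was 1.07 above the highest CON array. Ctsl rose 4.66-fold in V12/CON (2.22 ± 0.24, adjusted p = 6.59e-07), with 0.03 ± 0.24 in S-V12/V12 and 0.08 ± 0.24 in E-V12/S-V12. S-V12 was 4.78-fold and E-V12 5.03-fold above CON.

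Ctsb, a cysteine protease, rose in steps. It read 15.51, 14.73, 15.14 and 15.59 in E-V12, 15.34, 15.47, 15.23 and 15.36 in S-V12, 14.14, 13.99, 14.33 and 14.17 in V12, and 13.29, 13.76, 13.44 and 13.54 in CON. V12 lay above CON and below the operated groups without overlap. It rose by 0.65 ± 0.19 in V12/CON (adjusted p = 0.023) and by 1.19 ± 0.19 in S-V12/V12 (adjusted p = 0.000201), with −0.11 ± 0.19 in E-V12/S-V12. The V12/CON call on Ctsb ended without CON replicate 1 or 3 or V12 replicate 3 (adjusted p = 0.0504 to 0.0687) and with array weights (0.0578).

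Ctsd, the aspartic cathepsin, averaged 13.72 ± 0.09 in E-V12, 14.36 ± 0.27 in S-V12, 13.85 ± 0.29 in V12 and 14.28 ± 0.34 in CON. Its E-V12 arrays (13.65 to 13.85) lay below all S-V12 arrays (14.01 to 14.59), but the change of −0.64 ± 0.21 did not pass (adjusted p = 0.0981), nor did −0.43 ± 0.21 in V12/CON or 0.51 ± 0.21 in S-V12/V12. Ctsa, a serine carboxypeptidase that protects other lysosomal enzymes, read 10.07, 10.16, 10.37 and 10.18 in E-V12, 10.86, 11.09, 11.17 and 11.16 in S-V12, 11.01, 10.37, 10.33 and 10.57 in V12, and 11.05, 10.63, 10.45 and 10.43 in CON. It fell by 0.88 ± 0.19 in E-V12/S-V12 (adjusted p = 0.0208), a call that ended without S-V12 replicate 2, 3 or 4 or E-V12 replicate 1 or 3 (adjusted p = 0.0507 to 0.0668).

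Ctsc, which activates granule proteases in leukocytes, averaged 9.71 ± 0.35 in E-V12, 9.49 ± 0.57 in S-V12, 9.98 ± 0.42 in V12 and 10.88 ± 0.26 in CON. It fell by 0.90 ± 0.27 in V12/CON (adjusted p = 0.0219), and this call ended without CON replicate 3 or 4 or V12 replicate 3 or 4 (adjusted p = 0.0557 to 0.0785). Ctsc differed from CON by −1.39 in S-V12 (adjusted p = 0.000354) and −1.17 in E-V12 (adjusted p = 0.00203), and both calls were kept without any 1 array. Ctss, a cathepsin of antigen-presenting cells, lay above background on 4 E-V12, 3 S-V12, 2 V12 and 0 CON arrays, with means of 7.30 ± 0.28 in E-V12, 6.63 ± 0.29 in S-V12, 6.79 ± 0.53 in V12 and 5.94 ± 0.38 in CON. Its rise of 0.85 ± 0.25 in V12/CON (adjusted p = 0.021) ended without CON replicate 1, 2 or 4 or V12 replicate 1 (adjusted p = 0.0503 to 0.092) and is bounded at 1.11-fold or more, and E-V12 was at least 1.59-fold above CON (adjusted p = 0.000236). Ctsf and Ctsz passed no test in the 5 comparisons, and Ctsh was 0.88 lower in S-V12 than in CON (−0.88, adjusted p = 0.0433), a call that ended without CON replicate 2 or 4, V12 replicate 2 or 3 or S-V12 replicate 1 or 2 (0.0502 to 0.185). Ctse, Ctsg, Ctsk and Ctsw, along with Ctsj, Ctsm, Ctsq and Ctsr of the rodent placental cluster, were below background on every array.

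**Figure D3:**
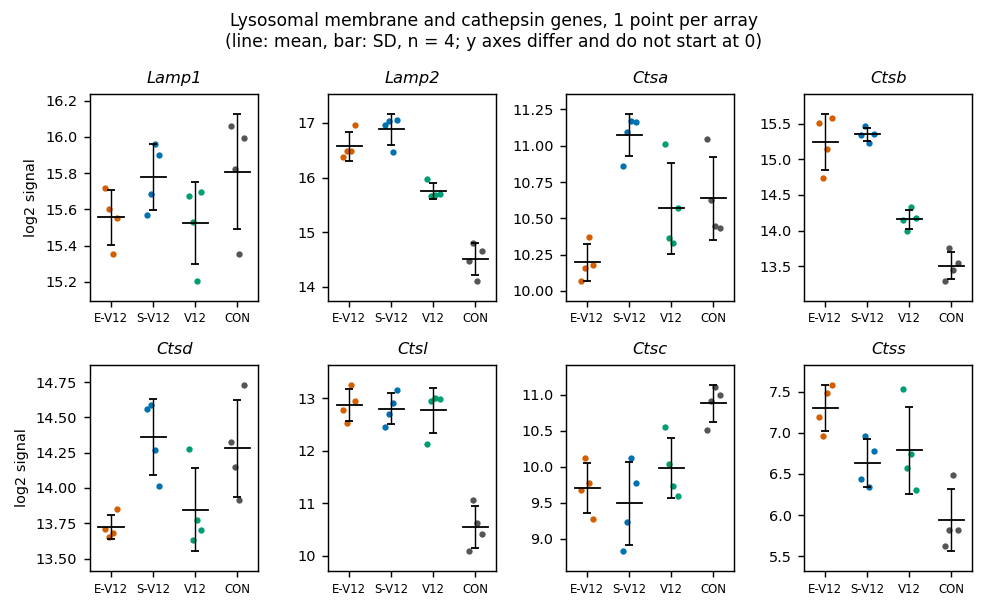
Log2 signal (y axis, not starting at 0) of Lamp1, Lamp2 and 6 cathepsins on each array in E-V12, S-V12, V12 and CON; points are single rats, lines the mean and bars the SD over the 4 rats. Ctsl was 10.09 to 11.06 in CON and 12.13 or higher elsewhere, and Lamp2 and Ctsb were highest in the operated groups.

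The proton pump consists of a membrane sector, V0, and a sector in the cytosol, V1, which hydrolyses ATP. Of 8 V0 genes 2 rose in V12/CON, and of 13 V1 genes 2 rose and 1 fell, against 7.68% of all clusters higher and 8.67% lower (14.2% and 18.1% of expressed ones). In S-V12/V12, 1 V0 gene rose and 1 fell, and 1 V1 gene rose and 4 fell, against 8.05% and 6.66% of all clusters (17.8% and 14.1% of expressed ones).

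In the V0 sector, Atp6v0e1 read 10.26, 9.84, 10.70 and 10.69 in E-V12, 10.59, 10.40, 9.93 and 10.14 in S-V12, 12.11, 11.16, 10.82 and 11.35 in V12, and 9.15, 10.22, 10.15 and 9.79 in CON. The V12 arrays were the 4 highest of the 16. It rose by 1.53 ± 0.28 in V12/CON (adjusted p = 0.000352) and fell by 1.09 ± 0.28 in S-V12/V12 (adjusted p = 0.009), which makes it, with Gabarap, 1 of the 3 members that rose in V12/CON and fell in S-V12/V12 (the third was Atg4a). Atp6v0a1, one of the alternative large subunits of the proton channel, read 11.28, 11.64, 11.31 and 11.46 in E-V12, 12.44, 12.11, 12.11 and 12.21 in S-V12, 12.21, 11.57, 11.62 and 11.42 in V12, and 11.21, 10.66, 10.26 and 10.77 in CON. It rose by 0.98 ± 0.21 in V12/CON (adjusted p = 0.0021) and fell by 0.80 ± 0.21 in E-V12/S-V12 (adjusted p = 0.0458). The E-V12/S-V12 call on Atp6v0a1 ended without any 1 of the S-V12 or E-V12 arrays (adjusted p = 0.0642 to 0.147), without CON replicate 4 or V12 replicate 2 or 3 (0.0526 to 0.0565), and with quantile normalization (0.0543). Atp6v0a2, another such subunit, averaged 8.52 ± 0.22 in E-V12, 8.78 ± 0.43 in S-V12, 7.78 ± 0.38 in V12 and 8.24 ± 0.35 in CON, and rose by 0.999 ± 0.24 in S-V12/V12 (adjusted p = 0.00576). Atp6v0b, Atp6v0c, Atp6v0d1 and Atp6v0e2 passed no test, and Atp6v0d2, a subunit of osteoclasts and kidney, was below background.

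In the V1 sector, the catalytic subunit Atp6v1a read 8.64, 8.53, 8.30 and 8.59 in E-V12, 8.37, 8.76, 8.36 and 8.77 in S-V12, 7.91, 8.46, 7.82 and 8.35 in V12, and 9.40, 9.42, 9.48 and 9.14 in CON. All CON arrays lay above all others. It fell by 1.23 ± 0.19 in V12/CON (adjusted p = 6.52e-05), and remained 0.80 below CON in S-V12 and 0.85 below it in E-V12 (changes of −0.80 and −0.85, adjusted p = 0.00293 and 0.00183). Atp6v1b2, the nucleotide-binding partner of the catalytic subunit, read 12.11, 11.94, 12.10 and 11.97 in E-V12, 12.23, 12.24, 12.99 and 11.86 in S-V12, 10.96, 11.42, 10.59 and 11.46 in V12, and 11.59, 11.32, 11.16 and 11.51 in CON. It rose by 1.22 ± 0.23 in S-V12/V12 (adjusted p = 0.000829), with −0.29 ± 0.23 in V12/CON.

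Atp6v1g1, a subunit of the stalks that hold the sectors together, read 11.35, 11.47, 11.24 and 11.26 in E-V12, 10.25, 10.37, 10.53 and 10.38 in S-V12, 11.63, 12.23, 11.61 and 12.01 in V12, and 10.80, 11.83, 11.73 and 11.26 in CON. The 4 S-V12 arrays were the lowest of the 16. It fell by 1.49 ± 0.21 in S-V12/V12 (adjusted p = 5.45e-05) and was the only member that rose in E-V12/S-V12 (0.95 ± 0.21, adjusted p = 0.0228), a call that ended without S-V12 replicate 1, 2 or 4 or E-V12 replicate 2 or 3 (adjusted p = 0.0602 to 0.0691). E-V12 differed from CON by −0.08 ± 0.21. The stalk subunits Atp6v1e1 and Atp6v1d also fell in S-V12/V12, by 0.88 ± 0.22 and 0.77 ± 0.21 (adjusted p = 0.00716 and 0.014, with Atp6v1d at 0.0542 without V12 replicate 2), and their changes in E-V12/S-V12 were 0.30 ± 0.22 and 0.49 ± 0.21. Atp6v1g3, a kidney isoform, met the criterion for a fall in S-V12/V12 (adjusted p = 0.0455) while below background on every array, so no size is given for it, and the call was kept in 5 of the 16 settings that leave out 1 array (adjusted p up to 0.146). Atp6v1h, a regulatory subunit, averaged 9.70 ± 0.38 in E-V12, 9.58 ± 0.38 in S-V12, 10.14 ± 0.24 in V12 and 9.21 ± 0.23 in CON, and rose by 0.92 ± 0.22 in V12/CON (adjusted p = 0.00536). Atp6v1c1 and Atp6v1f passed no test. Atp6v1g2, a brain isoform of the stalk, was above background on 3 V12 and 0 CON arrays, and its rise in V12/CON (adjusted p = 0.0465) is bounded at 1.02-fold or more and ended in 11 of the 16 settings that leave out 1 array (adjusted p up to 0.138). E-V12 was at least 1.22-fold above CON (adjusted p = 0.00265), a call kept without any 1 array. The S-V12 call against CON (adjusted p = 0.0302, at least 1.03-fold) was kept in 11 of those 16 settings.

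**Figure D4:**
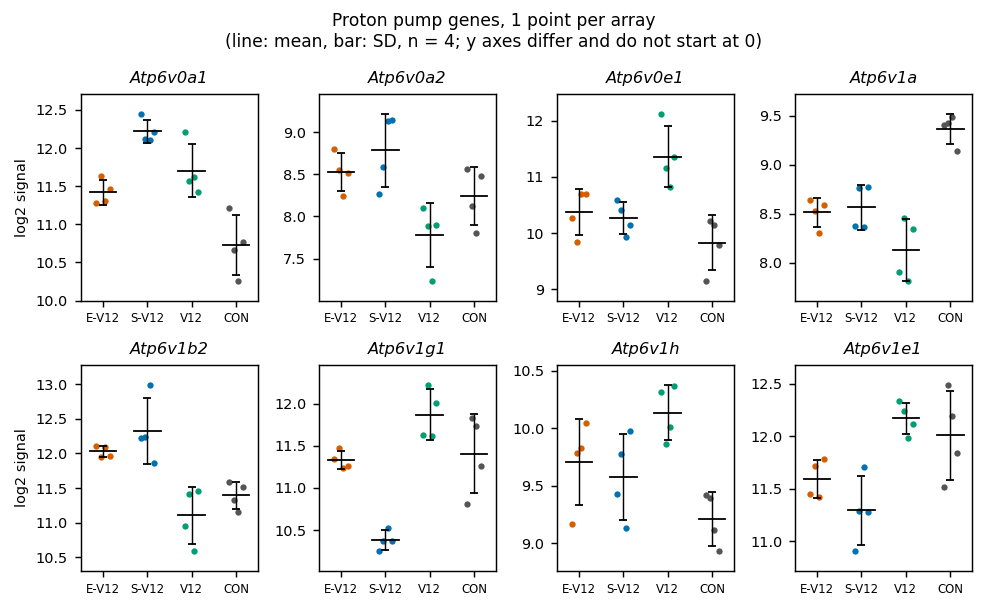
Log2 signal (y axis, not starting at 0) of 8 proton pump genes on each array in E-V12, S-V12, V12 and CON; points are single rats, lines the mean and bars the SD over the 4 rats. Atp6v1g1 was lowest in S-V12 (10.25 to 10.53), Atp6v0e1 highest in V12 and Atp6v1a highest in CON.

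Other genes of the pathway were read from lists. Of 27 measured genes that control mTORC1, the kinase complex that restrains autophagy, and TFEB, 3 rose and 4 fell in V12/CON. These are 11.1% and 14.8% of the list, against 7.68% and 8.67% of all clusters and 14.2% and 18.1% of expressed ones. Rragd, a lysosomal GTPase of that control, read 11.85, 11.84, 11.43 and 11.33 in E-V12, 11.60, 11.77, 11.85 and 11.49 in S-V12, 11.65, 11.37, 11.10 and 11.61 in V12, and 13.31, 13.34, 13.13 and 13.32 in CON, and fell by 1.84 ± 0.19 in V12/CON (adjusted p = 2e-07). The lowest CON array was 1.27 above every other array, the same side as for Tfeb. Sesn3, a sestrin that restrains mTORC1, fell by 2.19 ± 0.24 (adjusted p = 8.2e-07), while Ddit4, another mTORC1 inhibitor, rose by 2.34 ± 0.45 (adjusted p = 0.000747) and Rheb, its activator, by 0.78 ± 0.17 (adjusted p = 0.00234). In S-V12/V12 5 of the 27 rose and 4 fell (18.5% and 14.8%). The shares there were 8.05% and 6.66% of all clusters and 17.8% and 14.1% of expressed ones. Fnip2, a folliculin partner, rose by 2.51 ± 0.29 (adjusted p = 4.49e-06) and Tfe3, the closest relative of Tfeb on the list, by 1.17 ± 0.19 (adjusted p = 0.000232). Tfe3 averaged 10.24 in E-V12, 10.87 in S-V12, 9.70 in V12 and 9.18 in CON. Sesn2, Sesn3 and Tsc2 also rose in S-V12/V12, by 1.52, 1.05 and 1.08 (adjusted p = 0.00146, 0.00487 and 0.00489). Sesn2, another sestrin, had also risen in V12/CON, by 1.01 (adjusted p = 0.0243). That V12/CON call was kept in 13 of the 16 settings that leave out 1 array. In E-V12/S-V12 Tsc2, an mTORC1 inhibitor, fell by 1.06 ± 0.25 (adjusted p = 0.0281) and Mtor by 0.81 ± 0.22 (adjusted p = 0.0489). These 2 are 7.41% of the list, against 1.51% of all clusters and 3.9% of expressed ones.

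Among 11 genes for fusion with the lysosome, Rab7a, the GTPase of late endosomes, rose by 1.12 ± 0.19 in V12/CON (adjusted p = 0.000231). In S-V12/V12 the tethering genes Vps18, Vps11 and Vps39 and the adaptor Plekhm1 rose, by 1.54, 0.85, 0.70 and 0.87. Vps11 and Vps39 fell in E-V12/S-V12, by 0.96 ± 0.19 (adjusted p = 0.0122) and 0.83 ± 0.20 (adjusted p = 0.0281). Of 10 selective receptors and mitophagy genes, 1 rose and 3 fell in V12/CON (7.68% and 8.67% of all clusters, 14.2% and 18.1% of expressed ones). In S-V12/V12 2 rose and 2 fell (8.05% and 6.66% of all clusters, 17.8% and 14.1% of expressed ones). In E-V12/S-V12 Pink1, the kinase that marks damaged mitochondria, fell by 1.06 ± 0.26 (adjusted p = 0.0323) and Calcoco1 by 0.75 ± 0.19 (adjusted p = 0.0396). These were 2 of the 10, against 1.51% of all clusters and 3.9% of expressed ones. Of 11 other autophagy genes, Wipi2, which recruits the conjugation machinery, rose in S-V12/V12 (0.85 ± 0.23, adjusted p = 0.0141). It was the only 1 called higher there, against 8.05% of all clusters and 17.8% of expressed ones.

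Among 21 lysosomal hydrolases, Lgmn, the asparaginyl protease legumain, read 12.87, 11.30, 12.18 and 12.39 in E-V12, 12.04, 12.42, 12.11 and 12.27 in S-V12, 10.99, 10.70, 11.36 and 10.40 in V12, and 9.13, 9.86, 9.16 and 9.05 in CON. It rose by 1.56 ± 0.28 in V12/CON (adjusted p = 0.000267) and by 1.35 ± 0.28 in S-V12/V12 (adjusted p = 0.00166), the same order of groups as Ctsb. It was the only hydrolase of the list that rose in V12/CON, where 4 others fell, among them Lipa (−0.97 ± 0.20) and Manba (−1.32 ± 0.19). In S-V12/V12 4 hydrolases rose, and in E-V12/S-V12 Tpp1 fell by 0.87 ± 0.22 (adjusted p = 0.0403). Of 14 membrane and trafficking genes, 3 rose and 1 fell in V12/CON and 4 rose in S-V12/V12. For these 2 lists, the shares in V12/CON were 7.68% of all clusters higher and 8.67% lower (14.2% and 18.1% of expressed ones). In S-V12/V12, 8.05% of all clusters were higher (17.8% of expressed ones), and in E-V12/S-V12 1.51% were lower (3.9% of expressed ones). Sort1, a sorting receptor, rose by 1.20 ± 0.20 in S-V12/V12 (adjusted p = 0.000258) and fell by 0.93 ± 0.20 in E-V12/S-V12 (adjusted p = 0.0185). Of 4 pump accessory genes, Rnasek fell by 1.27 ± 0.20 and Atp6ap1 rose by 0.75 ± 0.20 in S-V12/V12 (adjusted p = 0.000107 and 0.011). Of all clusters, 6.66% were lower and 8.05% higher there (14.1% and 17.8% of expressed ones). The 4 measured cathepsin inhibitors changed by −0.24 to 0.37 in V12/CON, and none passed.

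The E-V12/S-V12 calls of these lists were also lost in settings that leave out 1 array. Those on Tsc2, Mtor, Pink1, Calcoco1, Vps39, Tpp1 and Sort1 each ended without 1 of several S-V12 or E-V12 arrays (highest adjusted p, in this order, 0.127, 0.157, 0.113, 0.136, 0.0916, 0.154 and 0.071), those on Mtor and Tpp1 also without single V12 or CON arrays, and that on Vps11 without E-V12 replicate 3 (0.0524). In S-V12/V12, the calls on Vps39 (without V12 replicate 3 or 4 or S-V12 replicate 3, adjusted p = 0.0511 to 0.0648), Plekhm1 (without V12 replicate 3 or S-V12 replicate 2, 0.0629 and 0.0808) and Wipi2 (without V12 replicate 3, 0.0645) ended likewise. Of the selective receptor and mitophagy calls, that on Bnip3l in V12/CON (higher) was kept in 6 of the 16 settings that leave out 1 array, that on Pink1 in V12/CON (lower) in 5, and that on Nbr1 in S-V12/V12 (higher) in 9 (adjusted p up to 0.111, 0.167 and 0.11). The call on Fundc1 in V12/CON (lower) was kept in 13 of the 16 (adjusted p up to 0.09). Without any 1 of the arrays in turn, 2 of the 4 lower hydrolase calls in V12/CON and 1 of the 4 higher ones in S-V12/V12 were kept every time. For the membrane and trafficking genes these were 1 of the 3 higher calls and 0 of the 1 lower call in V12/CON, and 3 of the 4 higher calls in S-V12/V12. Of the genes of mTORC1 and TFEB control called lower in S-V12/V12, 0 of 4 were kept every time.

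Skeletal muscle markers were bright on every array. The mean log2 signal of 11 of 12 such markers was 19.06 to 19.16 on E-V12 arrays, 19.15 to 19.20 in S-V12, 19.25 to 19.29 in V12 and 19.01 to 19.32 in CON. Tnni1, the slow troponin I, averaged 15.84 ± 0.16 in E-V12, 15.98 ± 0.21 in S-V12, 16.67 ± 0.05 in V12 and 16.69 ± 0.22 in CON, and fell by 0.69 ± 0.18 in S-V12/V12 (adjusted p = 0.00937), a call kept without any 1 array. Macrophage markers also changed. Of 15, 5 rose and 1 fell in V12/CON (7.68% and 8.67% of all clusters) and 3 rose in S-V12/V12 (8.05% of all clusters). The summed linear signal of these markers, in which the brightest weigh most, was 9377 to 28632 on E-V12 arrays, 16071 to 24775 in S-V12, 3471 to 8293 in V12 and 1605 to 4958 in CON. Their mean log2 signal was 6.79 to 7.49 on E-V12 arrays, 7.09 to 7.68 in S-V12, 6.28 to 7.36 in V12 and 5.81 to 6.70 in CON. By that mean, the S-V12 and V12 arrays overlapped, as did those of V12 and CON. In V12/CON Cd68, first by adjusted p (0.000718), rose by 1.26, Mrc1 by 1.77, Cd163 by 1.76 and Cd14 by 1.3. Lyz2 rose by 2.34 in S-V12/V12. Cd14 rose by 1.25 in S-V12/V12, or 0.82 without V12 replicate 4. The third call there, on Mpeg1, and the lower call in V12/CON, on Adgre1, were made below background on every array, and each was kept in 12 of the 16 settings that leave out 1 array (adjusted p up to 0.106 and 0.157). The part of macrophages in the signals of Ctsb, Ctsl, Ctss, Lamp2 and Lgmn was not tested. T and NK cell markers, 10 in all, were below background on every array. Signals of the poly-A control RNAs added before labelling averaged 5.98 ± 0.19 in E-V12, 6.99 ± 0.14 in S-V12, 6.48 ± 0.37 in V12 and 7.09 ± 0.40 in CON, whereas the hybridization controls averaged 11.03, 11.06, 10.87 and 11.03 in the same groups. In the poly-A controls, arrays did not overlap between E-V12 and S-V12, between S-V12 and V12, or between E-V12 and CON, and the part of these differences in the comparisons was not tested. CON replicate 3 had the highest background control (7.20, against 6.39 to 6.75 elsewhere) and the smallest share of clusters above it (33.0%, against 36.6% to 40.9%).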

How the data were processed

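RNA of 16 diaphragms was hybridised to Rat Clariom S arrays. Per the labels and the study's methods, the authors processed the scans in the Transcriptome Analysis Console with an RMA method and deposited log2 signals per transcript cluster, used here as they stand (24834 rows, of which 1646 control rows were left out). Versions of that software were not used here. RMA normalises arrays to each other, so a shift shared by most genes is not visible. Symbols came from the platform annotation: 15049 clusters had 1 symbol, 0 several and 8139 none. The 16 arrays limit the precision. A cluster was above background where it exceeded the brightest background control of its array.

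The 4 groups were fitted in limma 3.58.1 (R 4.3.3) as 1 model over 23188 clusters, with 5 contrasts and Benjamini-Hochberg adjustment at 0.05. The fit was tested on simulated data with planted changes. A rise from a group with no array above background, or with 1 (Atg14), is given as a bound, the brighter mean over the dimmer group's mean of, per array, the higher of its background control and its own signal. Replicates were separate rats. Replicate numbers did not pair the arrays: of 24 same-numbered pairs, 1 correlated above 0.1.

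Members, role lists, pathway lists and markers were chosen with earlier results of these data known. Named genes were, by rule, the 10 members of smallest adjusted p per consecutive comparison, a set given whatever its values (the ATG8 genes, Sqstm1, Bnip3, Becn1, Ulk1, Ulk2, Tfeb, Lamp1, Lamp2, Ctsb, Ctsd and Ctsl), and up to 4 genes per list; other members were added after their values were seen. Marker lists for neutrophils, mast cells, fibroblasts, endothelium, mesothelium and osteoclasts are given among the other observations. Alternatives were other tests, thresholds, normalizations, filters, array weights, a replicate block and leaving out each array.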

Additional observations from a re-analysis of the deposited data

Results flagged for a closer look

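In 7 of 100 checks of a named member within a group, 1 array stood apart from the other 3 by more of the group's range than Dixon's criterion allows; chance alone gives about 1 in 20. In E-V12, Gabarapl1 read 12.87 on replicate 1 and 13.85 or more on the others. In S-V12, replicate 1 read 10.10 for Atg12 (next highest 9.69) and 12.75 for Ulk2 (next highest 12.37), and replicate 3 read 16.47 for Lamp2 (next lowest 16.96). In V12, replicate 1 read 12.13 for Ctsl (next lowest 12.95) and 15.97 for Lamp2 (next highest 15.70). In CON, replicate 1 read 12.13 for Ulk2 (next highest 11.35). The V12/CON rises of Ctsl and Lamp2 and the S-V12/V12 rises of Lamp2 and Ulk2 held without any 1 of these arrays.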

How the results depend on the processing

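Over the 24 other settings, 0 fits gave a direction opposite to the call for the 87 changes of members called in the 5 comparisons. Many of these settings could not reverse a direction, because they keep the difference of group means. These are the t-test, the fit to the compared groups, trended variances, the low-signal filter and the replicate block. Leaving out an array of a group outside the comparison keeps it too. Counts are given as members higher and lower. With an added 2-fold threshold, whether on adjusted p, on unadjusted p or on the unadjusted t-test of the methods, V12/CON had 5 and 2, S-V12/V12 6 and 3, E-V12/S-V12 0 and 1, S-V12/CON 9 and 4, and E-V12/CON 9 and 2. Under the methods' t-test with adjusted p these counts were, in that order, 7 and 1, 9 and 5, 1 and 4, 12 and 8, and 10 and 4. Array weights gave 2 and 7 in E-V12/S-V12. Quantile normalization, subtracted array medians, a fit to the compared groups alone, trended variances and removal of the dimmest 25% of clusters kept every count within 1.5 times.

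Leaving out 1 array gave 11 to 14 and 2 to 4 in V12/CON, 8 to 12 and 6 to 12 in S-V12/V12, 0 to 1 and 0 to 6 in E-V12/S-V12, 14 to 19 and 7 to 10 in S-V12/CON, and 11 to 15 and 3 to 6 in E-V12/CON. The lower count in S-V12/V12 was 6 without V12 replicate 4 and 7 without S-V12 replicate 2. In E-V12/S-V12, the single rise was lost without S-V12 replicate 1, 2 or 4 or E-V12 replicate 2 or 3, and the 4 falls became 1 without any 1 S-V12 array or E-V12 replicate 1 or 4, and 0 without E-V12 replicate 3. Over the 25 named members and the 3 consecutive comparisons, a call was lost under an alternative 57 times and gained 23 times. The replicate number as a block, which the pairing check did not bear out, gave, in that order, 12 and 3, 9 and 9, 1 and 6, 18 and 9, and 13 and 3.

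The 17 of 69 members below background on every array have no measured level, and a difference between groups in them has no readable size.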

Other observations

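Markers of cell types other than muscle and macrophages gave the following values. Pdgfra, a fibroblast receptor, rose by 1.77 ± 0.36 in S-V12/V12 (adjusted p = 0.00162), the only 1 of 9 fibroblast markers called there. Of all clusters, 8.05% rose and 6.66% fell in S-V12/V12. The shares were 7.68% and 8.67% in V12/CON, and 1.19% and 1.51% in E-V12/S-V12. Of 8 endothelial markers, Pecam1 rose and Emcn fell in V12/CON (0.85 and −0.76), Eng rose in S-V12/V12 (1.20 ± 0.28), and Pecam1 fell by 1.08 ± 0.27 in E-V12/S-V12 (adjusted p = 0.0322); the V12/CON and E-V12/S-V12 calls on Pecam1 each ended without 1 of several arrays (adjusted p up to 0.116 and 0.112). Among 7 mast cell markers, Tpsab1 rose by 1.10 ± 0.25, Tpsb2 rose by 0.99 ± 0.30 and Cpa3 fell by 1.10 ± 0.33 in V12/CON. The Tpsb2 call ended without CON replicate 1 or 2 or V12 replicate 1 or 3 (adjusted p = 0.0802 to 0.0923), the Cpa3 call without CON replicate 2 or 4 or V12 replicate 1 or 3 (0.0701 to 0.0929), and the Emcn call without CON replicate 2 or 3 or V12 replicate 4 (0.0639 to 0.103). The mean log2 signal of 10 neutrophil markers was 4.39 to 5.61 on E-V12 arrays, 4.26 to 4.71 in S-V12, 4.20 to 4.35 in V12 and 3.99 to 4.28 in CON, with 7 of the 10 below background on every E-V12 array. The 3 measured mesothelial markers averaged 6.49 to 8.86 on E-V12 arrays, 6.96 to 7.84 in S-V12, 8.01 to 8.27 in V12 and 7.06 to 8.44 in CON, and the 2 measured osteoclast markers 4.50 to 4.89, 4.15 to 4.85, 4.57 to 5.15 and 4.51 to 4.94 in the same groups.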
